A study of Mus musculus with 8 samples.

Results

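Immediate early genes were examined in mouse extrahepatic bile duct and pancreatic duct epithelium taken directly from the animal and in organoids grown from the same ducts. The 10 genes were Fos, Fosb, Jun, Junb, Jund, Egr1, Atf3, Ier2, Dusp1 and Nr4a1. They were taken by gene symbol from 31228 genes in the deposited table, and each matched 1 row. The list was chosen with earlier results of these data known, so the choice was not blind to them. The study asked how alike the duct epithelia are and how alike the organoids made from them are. All samples came from C57BL/6 mice, and the labels give no age, sex or pooling of animals. Bile duct epithelium and pancreatic duct epithelium had 1 library each, and bile duct organoids and pancreatic duct organoids had 3 each. For every sample the duct was dissected, minced and digested with collagenase IV for 20 min at 37 °C. The digested epithelia then went into Trizol without culture. Organoids were grown in Matrigel for 3 to 4 passages in an expansion medium that held, among other factors, EGF at 50 ng/mL and FGF10 at 100 ng/mL. Wnt3A and the kinase inhibitor Y27632 were left out once hollow organoids had formed. The labels do not say whether the cultures of an organ came from separate mice, so p-values measure the spread between these samples, which may be technical.

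Immediate early genes are transcribed within minutes of a stimulus, from factors already present in the cell and without new protein synthesis. Growth factors, wounding, stretch and cell stress reach them through MAP kinases, which act on the factors SRF, ELK and CREB at their promoters, and their mRNAs are usually short-lived. Fos and Jun proteins pair through leucine zippers to form AP-1, a factor that sets the transcription of many later genes. In epithelium they are known for their part in the response to injury, and tissues dissociated with enzymes are known to express them.

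The libraries held between 12876470 and 20828217 reads or read pairs, as implied by the deposited values. Levels below are scaled FPKM, that is fragments per kilobase of exon and per unit of sequencing depth, brought to a common scale over the 8 libraries, so that they can be compared between genes per length. The epithelial samples were not pure epithelium. The summed level of 15 acinar genes was 27206 in the fresh bile duct and 55817 in the fresh pancreatic duct. In the organoids it was 1.70 to 7.76, and 8 of the 15 (among them Cpa1, Pnlip and Ptf1a) were at 0 in every culture. The 12 duct epithelium markers summed to 2827 and 691 in the same 2 fresh samples and to 5218 to 11321 in organoids. Fibroblast markers (10 genes) summed to 1898 and 1962.5 in the epithelia and to 0.746 to 8.82 in organoids. Smooth muscle markers (10 genes) gave 2481 and 4037 against 0.907 to 4.19, and endothelium markers (10 genes) 731 and 1188 against 1.62 to 2.74. Leukocyte markers (10 genes) gave 441 and 417 against 2.67 to 12.9. Nerve and glia markers (10 genes) gave 72.6 and 108 against 1.61 to 12.7, and erythrocyte markers (8 genes) gave 374 and 737 against 0.146 to 6.72. Apart from the fibroblast marker Lum, none of the markers outside the acinar list was at 0 in all 6 organoids. Higher in both epithelia than in every organoid were all 15 acinar markers, all 10 each of the fibroblast, smooth muscle, endothelium and leukocyte markers, 9 of 10 nerve and glia markers, 4 of 8 erythrocyte markers, and 0 of 12 duct epithelium markers. Mitochondrial genes took 24.9% and 18.8% of all FPKM in the epithelia and 5.43% to 7.29% in organoids. Each epithelium therefore carried RNA of other cell types at higher summed levels than any organoid. Single markers came close or overlapped. Ncam1 was at 7.94 in bile duct organoid 1 and 8.46 in pancreatic duct organoid 2, above 2.60 and 4.54 fresh, and the macrophage marker Cd68 was at 10.8 in pancreatic duct organoid 2, against 26.7 and 12.6 fresh. In these bulk samples fewer cells of a type and less RNA per cell cannot be told apart, and the part of these cells and of the mitochondrial share in the results below was not tested.

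All 10 genes were lower in every organoid than in both epithelia, and 9 of them fell in culture by limma's moderated test with organ as a covariate, with Benjamini-Hochberg adjustment over 14919 genes. The background was high. Of all genes tested 27.0% passed in this direction and 32.3% in the other, 59.2% together, and 28.4% had all organoids below and 35.3% all organoids above both epithelia. The median difference between organoids and epithelia over the 10 genes was -3.78 on the log2(scaled FPKM + 1) scale, against 0.11 over all genes tested. The fall was 10-fold or more for 6 genes (Fosb, Atf3, Jun, Fos, Dusp1 and Nr4a1). It was smaller for Egr1, Ier2 and Junb, and Jund did not pass the test. An exact two-sided permutation test of each gene over the samples, 2 epithelia against 6 organoids, gave p = 0.0357 for these 9, the smallest p it can give, and 0.0714 for Jund. Fresh tissue was replicated only across organs. Leaving out single libraries gave between 8 and 10 genes past the threshold, and the changes were in the calls for Junb and Jund.

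**Figure D1:**
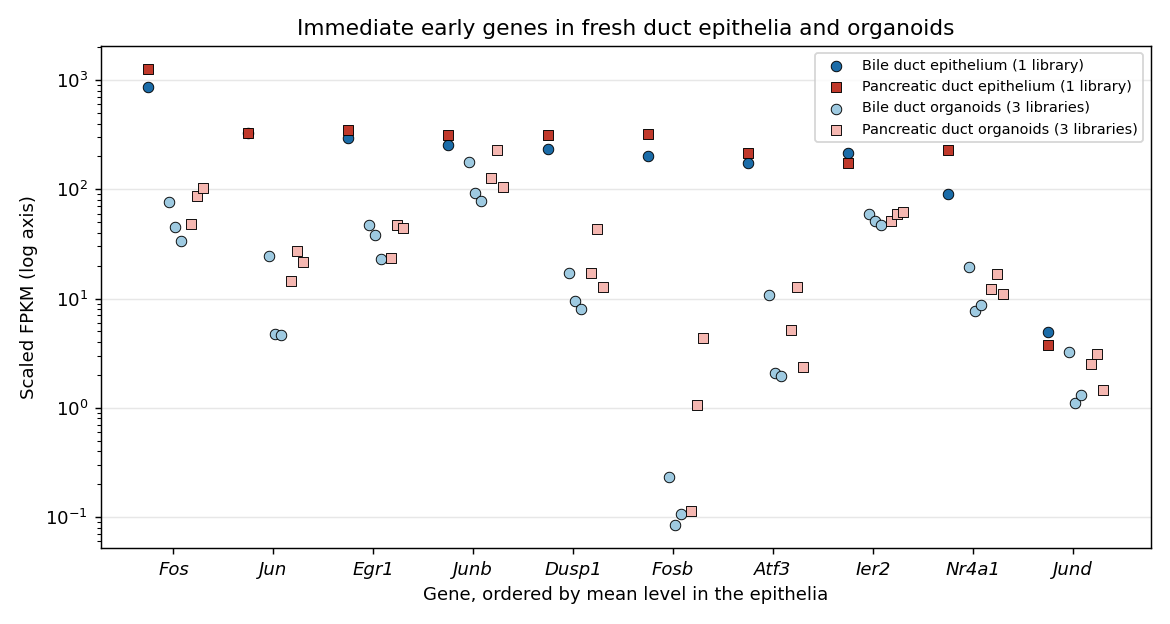
Scaled FPKM on a log axis for the 10 genes, ordered by their mean in the epithelia, where each point is 1 library and the symbols stand for the 4 groups. Every organoid lies below both epithelia for each gene, by a wide margin for Fosb (0.0838 to 4.37 in organoids against 202 and 322) and narrowly for Junb (230.6 in the highest organoid against 252). The points of Jun in the epithelia, 326 and 331, overlap.

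Promoter sequence was read because these genes moved together and because factors bound there are the known route of their induction. RefSeq promoter windows of build GRCm38.p6, with 250 bases before and 50 after the transcription start, matched 8 of the 10 genes, and Egr1 and Ier2 did not match. Shown 5′ to 3′ on the strand of the gene are the windows of the 4 genes with falls of more than 16-fold for which TGACG, the core of CREB and ATF sites, was found, and that of Junb, whose fall was small. Capitals mark TGACG on either strand (CGTCA where it lies on the opposite strand) and the TATA box motif TATAAA on the strand of the gene. Fos is chr12:85473640-85473939 on the plus strand, and Fosb is chr7:19309996-19310295, Atf3 chr1:191183284-191183583, Dusp1 chr17:26508423-26508722 and Junb chr8:84978699-84978998, all on the minus strand.
Fos: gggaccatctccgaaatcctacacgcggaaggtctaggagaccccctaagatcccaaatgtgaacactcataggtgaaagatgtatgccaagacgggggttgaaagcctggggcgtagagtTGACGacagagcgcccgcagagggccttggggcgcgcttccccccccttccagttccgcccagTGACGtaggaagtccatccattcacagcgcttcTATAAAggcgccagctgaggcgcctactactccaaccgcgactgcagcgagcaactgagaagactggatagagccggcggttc
Fosb: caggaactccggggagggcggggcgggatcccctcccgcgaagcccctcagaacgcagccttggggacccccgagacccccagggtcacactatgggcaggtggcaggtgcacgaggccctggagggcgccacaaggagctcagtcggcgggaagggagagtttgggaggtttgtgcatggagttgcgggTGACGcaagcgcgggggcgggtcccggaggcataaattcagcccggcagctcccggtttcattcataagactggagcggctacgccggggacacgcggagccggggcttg
Atf3: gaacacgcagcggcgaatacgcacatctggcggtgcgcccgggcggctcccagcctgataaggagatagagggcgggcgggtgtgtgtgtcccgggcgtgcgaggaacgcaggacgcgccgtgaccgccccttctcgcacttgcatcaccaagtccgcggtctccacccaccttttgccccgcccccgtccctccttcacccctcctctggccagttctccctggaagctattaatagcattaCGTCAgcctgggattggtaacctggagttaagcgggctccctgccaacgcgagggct
Dusp1: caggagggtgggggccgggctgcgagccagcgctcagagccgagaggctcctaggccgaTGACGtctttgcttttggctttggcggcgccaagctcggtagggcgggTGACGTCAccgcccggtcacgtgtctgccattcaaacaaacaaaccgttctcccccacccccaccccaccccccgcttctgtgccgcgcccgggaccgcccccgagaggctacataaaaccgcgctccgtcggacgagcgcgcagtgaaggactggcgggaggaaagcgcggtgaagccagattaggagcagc
Junb: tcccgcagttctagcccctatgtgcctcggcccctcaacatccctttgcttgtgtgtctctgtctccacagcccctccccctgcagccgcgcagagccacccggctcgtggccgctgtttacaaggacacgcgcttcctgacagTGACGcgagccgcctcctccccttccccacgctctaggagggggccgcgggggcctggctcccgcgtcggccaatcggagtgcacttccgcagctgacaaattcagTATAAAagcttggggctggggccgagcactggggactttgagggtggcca

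The motif TGACG was in 6 of the 8 windows (Fos, Fosb, Junb, Atf3, Dusp1 and Nr4a1), counting both strands, against 20.8% of 32851 windows of the same length. Fos had it at 2 places, 129 and 66 bases before the start, and Nr4a1 had it at 4 places. Dusp1 was the only member with the full palindrome TGACGTCA, which contains TGACG on both strands and was in 1.79% of all windows. The GC box GGGCGG was in 6 of 8 windows against 35.7% of all, and TATAAA in 2 of 8 (Fos and Junb) against 13.6%. The AP-1 site TGACTCA was in 0 of 8 windows against 5.20% of all, and the CArG box, the motif of SRF, in 0 of 8 against 1.63%. Sequence farther upstream than the windows was not read, nor were the promoters of Egr1 and Ier2. These counts of 0 therefore cannot show whether the genes lack such sites. Junb held TGACG as well, and Jun, with a wide fall, did not. RefSeq starts differed from the gene ends in the deposited table for some members. In Junb TATAAA lay at the RefSeq start, which is 30 to 25 bases before the start of the gene as the table gives it. The Atf3 window lies at an internal start, 34706 bases inside the gene span of the table, and that of Jund at a start 1210 bases upstream of the table's. For the other 5 members the starts were within 47 bases. These matches describe letters in these windows only.

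Instability motifs in the 3′ UTR were also counted, since the pentamer ATTTA is the core of the AU-rich elements that shorten the life of mRNAs. In GENCODE M21 transcripts 9 of the 10 genes had ATTTA in the 3′ UTR, all but Ier2, against 63.7% of 17455 protein-coding genes with a 3′ UTR of at least 50 bases. The longer form TATTTAT, which is ATTTA with a T on each side, was in 6 of 10 against 26.1%. The median 3′ UTR was 785 bases in the 10 genes and 885 in all. Fos and Dusp1 carried the nonamer TTATTTATT, found in 6.92% of genes, Fos at 1 place and Dusp1 at 2. A single site of each is shown as DNA with ATTTA in capitals, from chr12:85477102-85477131 on the plus strand and chr17:26506159-26506188 on the minus strand of GRCm38.
Fos: gtgttttcaATTTATTTAttaagatggatt
Dusp1: ggagctggtccttATTTATTTAacaccccc

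On the Fos side lay the member with the highest fresh level and the one with the widest change. Fos (ENSMUSG00000021250, chromosome 12, 85473890 to 85477273) encodes the partner that makes AP-1 dimers with Jun proteins. It had 871 scaled FPKM in epithelium of the bile duct and 1269.8 in that of the pancreatic duct, 75.9, 45.2 and 33.9 in bile duct organoids 1 to 3, and 48.2, 87.3 and 102 in pancreatic duct organoids 1 to 3. The lower epithelium was 8.54 times the highest organoid. Fos ranked 47 and 36 among 14919 genes in the epithelia and between 426 and 1702 in the organoids. It fell in culture by 4.09 on the log2 scale (SE 0.36, limma adjusted p = 8.29e-05), about 17.0-fold, and was thus the most abundant member when fresh.

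Fosb (ENSMUSG00000003545, chromosome 7, 19302696 to 19310051), a close relative of Fos, had the widest fall. Its levels were 202 and 322 scaled FPKM in the fresh samples, bile duct first. Bile duct organoids 1 to 3 had 0.231, 0.0838 and 0.106, and pancreatic duct organoids 1 to 3 had 0.114, 1.06 and 4.37. These values rest on 15083 and 28782 reads in the epithelia and on 25, 11, 13, 11, 116 and 605 reads in the organoids in the same order. Pancreatic duct organoid 3 therefore held most of the Fosb reads seen in culture, and even there the lower epithelium was 46.3 times higher. It fell by 7.31 on the log2 scale (SE 0.52, limma adjusted p = 2.51e-05), a scale that understates the change of a gene this low in culture. Only 0.395% of genes tested had a difference as low or lower.

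On the Jun side the members differed widely from each other. Jun (ENSMUSG00000052684, chromosome 4, 95049034 to 95052222) is the main partner of Fos and is raised by the stress kinase JNK. Fresh, its scaled FPKM was 326 for bile duct and 331 for pancreatic duct. Organoids of bile duct had 24.3, 4.70 and 4.62 and those of pancreatic duct 14.4, 27.5 and 21.5. The epithelia were nearly equal, while the lowest and highest organoids differed 5.95-fold. Jun fell by 4.54 (SE 0.63, limma adjusted p = 0.000724), about 23.3-fold.

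Junb (ENSMUSG00000052837, chromosome 8, 84974484 to 84978718), which forms weaker activating AP-1 than Jun and can oppose it, remained abundant in culture. It had 252 and 317 scaled FPKM fresh (bile duct, then pancreatic duct), 178, 92.1 and 78.2 in bile duct organoids and 127, 230.6 and 104 in pancreatic duct organoids. The groups came close, because the lower epithelium was only 1.09 times pancreatic duct organoid 2. Junb fell by 1.16 (SE 0.39, limma adjusted p = 0.0351), about 2.24-fold. This call was lost without any single one of 6 libraries, namely bile duct epithelium (adjusted p = 0.173), pancreatic duct epithelium (0.154), bile duct organoids 2 (0.0647) or 3 (0.0579), or pancreatic duct organoids 1 (0.0659) or 3 (0.0549), all by limma. It was also lost with no filter on low genes (limma adjusted p = 0.0561) and on within-library ranks (0.0712).

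Jund (ENSMUSG00000071076, chromosome 8, 70698949 to 70700616), known as the Jun protein of resting cells, was the lowest member in both epithelia. It had 4.97 and 3.73 scaled FPKM fresh, 3.25, 1.11 and 1.31 in bile duct organoids and 2.53, 3.10 and 1.46 in pancreatic duct organoids. All of these rest on 39 to 99 reads per library, so the precision is low. The difference of -0.82 (SE 0.33, limma adjusted p = 0.0652) did not pass, although no organoid reached the lower epithelium. It passed without bile duct organoid 1 (limma adjusted p = 0.0258), without the organ term (0.0482) and with median of ratios scaling (0.0379).

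Set beside the other Fos and Jun genes, the makeup of AP-1 transcripts differed between fresh and cultured samples. The summed level of Fos, Fosb, Fosl1, Fosl2, Jun, Junb and Jund was 1675 and 2261 scaled FPKM in the epithelia and 143 to 408 in the organoids. Fos made up 52.0% and 56.2% of the sum in the epithelia and 20.7% to 38.0% in organoids. Junb made up 15.04% and 14.0% in the epithelia and 38.8% to 56.5% in organoids, where it was the leading transcript in all 6 cultures. The share of Jun was 19.5% and 14.7% fresh against 2.72% to 7.99% in culture, and that of Fosb 12.1% and 14.3% against at most 1.63%. Fosl1, a Fos relative known for sustained growth signals, was higher in organoids, at 7.48 to 13.4 against 3.49 and 3.28 scaled FPKM. Its share was at most 0.208% fresh and between 2.79% and 7.58% in culture, and the gene rose by 1.43 (SE 0.20, limma adjusted p = 0.000783). Fosl2 had 14.4 to 46.3 in organoids against 15.6 and 13.6 and did not pass (difference 0.79, limma adjusted p = 0.101). These shares are descriptions, with no test of their own.

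**Figure D2:**
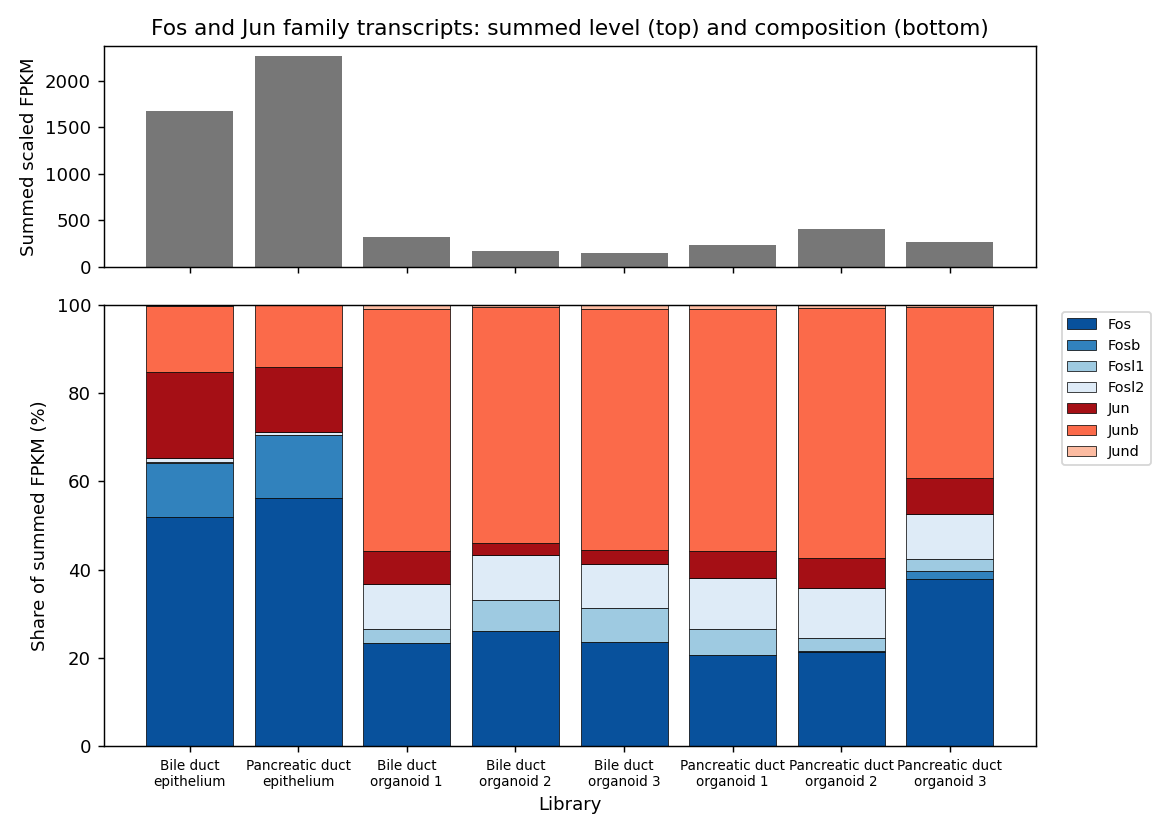
Top, summed scaled FPKM of 7 Fos and Jun family genes in each of the 8 libraries; bottom, the share of each gene in that sum, in percent. Fos (dark blue) is the largest part in both epithelia, and Junb (orange) in all 6 organoids, with pancreatic duct organoid 3 the closest to even (38.8% Junb and 38.0% Fos).

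Atf3 (ENSMUSG00000026628, chromosome 1, 191170296 to 191218039) encodes a stress-induced repressor of the ATF and CREB family that can pair with Jun. It had 175 and 215 scaled FPKM in the epithelia. Bile duct organoids had 10.9, 2.098 and 1.96 and pancreatic duct organoids 5.12, 12.6 and 2.37. Cultures differed up to 6.45-fold, yet the lower epithelium was 13.9 times the highest of them. Atf3 fell by 5.13 (SE 0.67, limma adjusted p = 0.000568), about 34.9-fold, second to Fosb. Its gene spans 47744 bases, whereas the other members span 7947 or fewer, and the median of the 10 was 3809.5 bases against 21341 for the 18477 protein-coding genes of the table.

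Egr1 and Nr4a1 encode inducible factors outside the AP-1 family. Egr1 (ENSMUSG00000038418, chromosome 18, 34859823 to 34864984), a zinc finger protein that follows ERK signalling and binds GC-rich sites, had 294 and 349 scaled FPKM in the epithelia. Organoids of bile duct had 47.4, 38.5 and 23.2 and those of pancreatic duct 23.5, 47.4 and 44.6. No culture came within 6.21-fold of the lower epithelium, and Egr1 stayed among the better expressed members in culture. It fell by 3.13 (SE 0.34, limma adjusted p = 0.000219), about 8.73-fold. Nr4a1 (ENSMUSG00000023034, chromosome 15, 101266846 to 101274792), an orphan nuclear receptor also called Nur77, had 91.5 in fresh bile duct and 229.5 in fresh pancreatic duct. Organoids had 19.6, 7.71 and 8.73 for bile duct and 12.3, 16.8 and 11.1 for pancreatic duct. The epithelia were farther apart than for any other member, and the cultures differed up to 2.54-fold. Nr4a1 fell by 3.48 (SE 0.39, limma adjusted p = 0.000259), about 11.2-fold.

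Ier2 and Dusp1 are not DNA-binding factors of these families. Ier2 (ENSMUSG00000053560, chromosome 8, 84661331 to 84662852), a short nuclear protein induced by growth factors, had 215 and 173 scaled FPKM in the epithelia. Its organoid levels were 60.0, 51.0 and 47.1 for bile duct and 51.1, 59.8 and 61.5 for pancreatic duct. With a coefficient of variation of 11.0% it was the steadiest member across cultures, where the others ranged from 30.4% (Egr1) to 171% (Fosb). Ier2 fell by 1.80 (SE 0.15, limma adjusted p = 5.83e-05), about 3.48-fold. Dusp1 (ENSMUSG00000024190, chromosome 17, 26505590 to 26508519), a phosphatase that switches MAP kinases off and so limits the response that induces it, had 236 and 317 in the epithelia. Organoids had 17.1, 9.47 and 8.09 for bile duct and 17.0, 43.4 and 12.6 for pancreatic duct, so that pancreatic duct organoid 2 stood above the other cultures. Dusp1 fell by 4.07 (SE 0.47, limma adjusted p = 0.000295), about 16.9-fold.

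The order of the members differed between the groups. In both epithelia Fos was highest and Jund lowest, and the other 8 lay between 91.5 and 349 scaled FPKM. In organoids Junb was highest on average at 135 ± 58.3, followed by Fos at 65.4 ± 26.9, Ier2 at 55.1 ± 6.06 and Egr1 at 37.4 ± 11.4 (SD, n = 6 cultures each). Fos and Ier2 did not differ beyond their spread. Dusp1 at 17.9 ± 13.0, Jun at 16.2 ± 9.92, Nr4a1 at 12.7 ± 4.65 and Atf3 at 5.84 ± 4.76 came next and overlapped. Jund at 2.13 ± 0.950 and Fosb at 0.994 ± 1.70 were lowest (SD, n = 6 cultures each).

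Each organ was also taken alone, with no test because each epithelium was 1 library. A member was counted as lower when the mean of its organoids was at least 2-fold below the epithelium on the log2(scaled FPKM + 1) scale and all 3 cultures lay below it. All 10 members were lower in bile duct organoids, where 23.8% of all genes were lower and 14.2% higher. In pancreatic duct organoids 9 were lower, where 22.5% of all genes were lower and 17.2% higher. Jund was the exception, at -0.52 ± 0.38 (log2, SD, n = 3 organoids). Junb and Jund lay near the 2-fold limit. The count for bile duct was 8 without organoid 3 (Junb -0.97, Jund -0.99), and 9 without organoid 2 (Jund -0.93) and with upper quartile scaling (Jund -0.98), and that for pancreatic duct was 8 on deposited FPKM (Junb -0.98) and without organoid 3 (Junb -0.91). In both organs the widest changes were those of Fosb, at -7.48 ± 0.10 for bile duct and -7.13 ± 1.14 for pancreatic duct, and of Atf3, at -5.21 ± 1.14 and -5.05 ± 1.01. Fos changed by -4.13 ± 0.58 and -4.05 ± 0.56. Jun changed by -5.13 ± 1.25 and -3.95 ± 0.45, and Nr4a1 by -2.94 ± 0.68 and -4.02 ± 0.29 (all log2, SD, n = 3 organoids). Whether the organs differed in these changes was not tested.

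Between the epithelia, 8 of the 10 members were higher in pancreatic duct, all but Jund and Ier2, where 51.6% of all genes were, with no replicate on either side. The differences were small. Nr4a1 alone was at least 2-fold higher in pancreatic duct epithelium (2.51 times, a log2 difference of -1.32 for bile duct minus pancreatic duct), where 4.31% of all genes were that much higher, 9.07% in bile duct epithelium and 13.4% either way. Fosb was 1.59 times, Fos 1.46 times and Jun 1.01 times as high in pancreatic duct as in bile duct epithelium. Ier2 was at 0.804 times and Jund at 0.750 times. Summed acinar, smooth muscle, endothelium, nerve and glia, erythrocyte and, slightly, fibroblast markers were also higher in pancreatic duct epithelium. Duct epithelium markers and, slightly, leukocyte markers were lower, as given above.

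Between the organoids of the organs, 0 of the 9 members tested passed an adjusted p of 0.05 in limma, and 0 of all 12106 genes did. At an unadjusted p under 0.05 limma gave 0 members, against 2.56% of all genes. Without bile duct organoid 1 it gave 3 members and without pancreatic duct organoid 1 or 3 it gave 1, and without pancreatic duct organoid 3 the adjusted test passed 11 genes. Fosb was not tested because only 2 cultures reached 1 FPKM. All 9 tested members had lower means in bile duct organoids, where 6186 of the 12106 genes did, and their median difference was -0.42 against -0.00 for all genes. The widest were Jun, at -1.20 (SE 0.62, limma adjusted p = 1.00), and Dusp1, at -0.89 (SE 0.49, limma adjusted p = 1.00). The groups overlapped for every member: Jun, for example, averaged 11.2 ± 11.4 scaled FPKM in organoids from bile duct against 21.1 ± 6.58 in those from pancreatic duct (SD, n = 3). Exact two-sided permutation tests gave no member a p below 0.2, where 3 cultures against 3 can give no less than 0.1.

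Within the cultures the members varied together. Bile duct organoid 1 and pancreatic duct organoid 2 were both among the 3 highest cultures for 10 of 10 members, where 33.3% of all genes had that order, and bile duct organoid 2 or 3 was the lowest for 10 of 10, where 32.1% did. The mean deviation of the 10 genes from their organoid means was 0.69 on the log2 scale in pancreatic duct organoid 2 and 0.42 in bile duct organoid 1. It was 0.19 and -0.09 in pancreatic duct organoids 3 and 1, and -0.53 and -0.68 in bile duct organoids 2 and 3. This order was noticed in the data and is a description, with no test. Over the 45 pairs of members the correlation across the 6 cultures had a median of 0.70 and ran from -0.08 to 0.99, with 43 above 0. The points of each pair share library and depth, and 6 is few. Pairs of other genes were not computed, so these values cannot be read as particular to the members. Fos went with Ier2 (r = 0.99) and with Jun (0.88), while Junb, Atf3, Jund and Nr4a1 went together (0.91 to 0.98). Fosb went with Fos (0.79) but hardly with Junb (0.10) or Atf3 (-0.07), and its highest culture was pancreatic duct organoid 3.

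Beside this order, the summed level of 12 proliferation genes was lowest in the same cultures, at 288 in pancreatic duct organoid 2 and 395 in bile duct organoid 1. It was 477 and 535 in pancreatic duct organoids 1 and 3 and 575 and 608 in bile duct organoids 2 and 3. In the epithelia it was 98.1 and 71.7. The chemokine Ccl2, a list gene picked here after its values were seen, had 248 and 201 scaled FPKM in bile duct organoid 1 and pancreatic duct organoid 2 and 2.42 to 79.5 in the other cultures. The part of proliferation or of inflammatory signals in the order of the members was not tested.

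**Figure D3:**
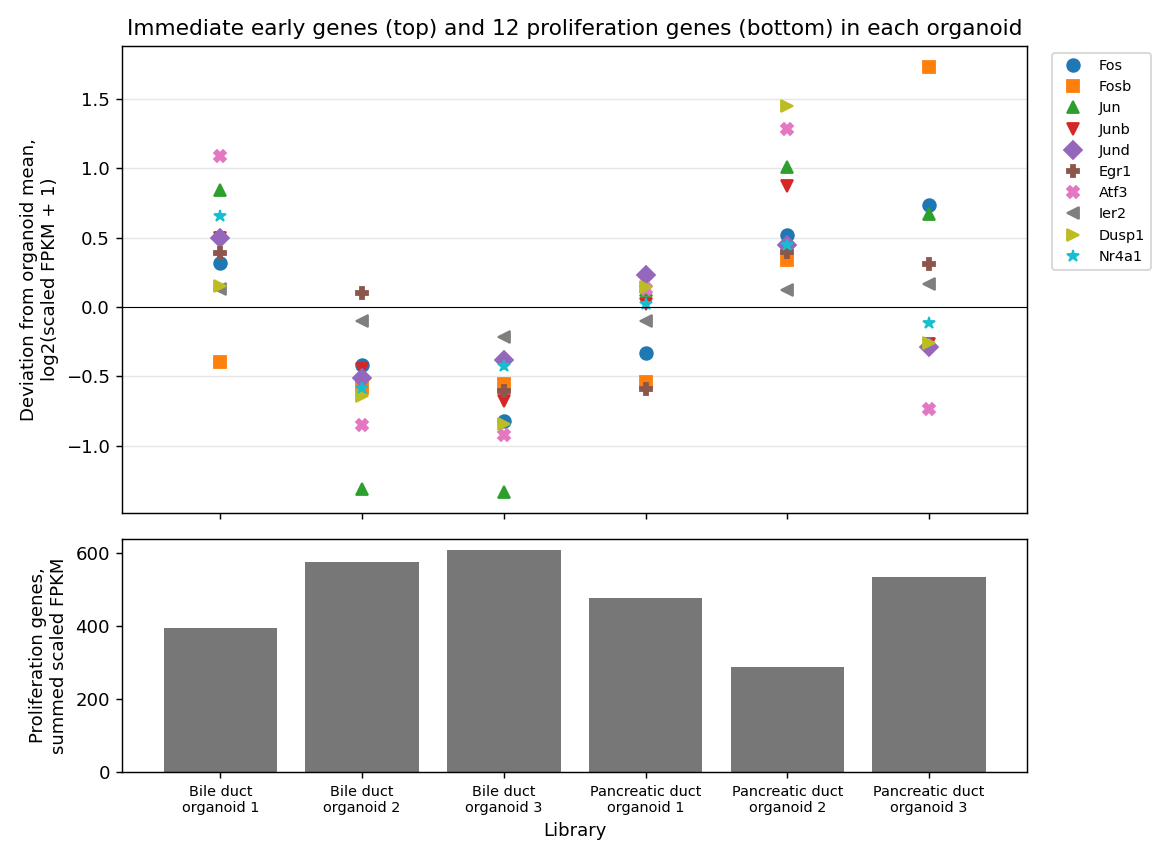
Top, deviation of each of the 10 genes from its mean over the 6 organoids, on the log2(scaled FPKM + 1) scale, with 1 symbol per gene; bottom, summed scaled FPKM of 12 proliferation genes in the same libraries. Most genes lie above 0 in bile duct organoid 1 and pancreatic duct organoid 2, where the bars are lowest (395 and 288), and below 0 in bile duct organoids 2 and 3, where they are highest.

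A wider list of 40 immediate early genes, without the 10, was mixed. In culture 24 of the 40 fell and 4 rose by limma's adjusted p, and 12 did not pass, where 27.0% of all genes tested fell and 32.3% rose. The median difference was -1.37, against 0.11 over all genes tested. Fits that leave out an epithelium have their own background, since fewer genes passed in them. Without bile duct epithelium 10.4% of all genes tested fell and 26.2% rose, and without pancreatic duct epithelium 9.63% fell and 23.5% rose, shares that apply to the counts of such fits here and in the lists below. In the fit without pancreatic duct epithelium 12 of the wider list fell. The widest falls were those of Klf2, a flow- and stress-responsive factor (116 in the epithelia on average against 0.566 ± 0.470 scaled FPKM in organoids, SD, n = 6; log2 difference -6.21, limma adjusted p = 1.41e-06), and of Zfp36, which binds AU-rich elements and hastens mRNA decay (289.8 against 11.0 ± 3.19; -4.63, limma adjusted p = 1.17e-06). Socs3, a brake on cytokine signalling, fell by 3.06 (limma adjusted p = 0.000315). The genes that rose were Cebpb, Myc, Ier5l and Ier5. Cebpb went from 3.80 to 37.3 ± 5.00 scaled FPKM (SD, n = 6; log2 difference 3.01, limma adjusted p = 8.05e-06). Myc, a growth factor-induced regulator of cell growth, went from 11.4 to 71.1 ± 11.6 (2.53, limma adjusted p = 1.39e-05), and Ier5l from 3.37 to 19.5 ± 6.31 (2.202, limma adjusted p = 0.000582).

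Of 15 other AP-1 and ATF family genes tested, from 16 listed, 8 fell and 2 rose, with a median of -0.48, where 27.0% of all genes fell and 32.3% rose. Without bile duct epithelium 4 fell and 1 rose, where 10.4% and 26.2% of all genes did, and without pancreatic duct epithelium 3 fell and 1 rose, where 9.63% and 23.5% did. Among those that fell were Maf (-2.20, limma adjusted p = 0.000226), known in macrophages, and Atf5 (-1.76, limma adjusted p = 0.00181). Leukocyte markers were also lower in organoids, as given above. Those that rose were Fosl1 and Mafg (0.59, limma adjusted p = 0.0109). Atf4 was at 129.6 and 124 scaled FPKM fresh, against 104 to 128 in organoids, and did not pass.

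The factors and kinases that drive immediate early transcription went both ways. Of 26 genes, 4 fell, 8 rose and 14 did not pass, with a median of 0.14 against 0.11 over all genes tested. The count that rose was near the background, where 32.3% of all genes rose, and 27.0% fell, so it is no result about this list. Without bile duct epithelium 2 fell and 4 rose, and without pancreatic duct epithelium 1 fell. Srf itself was at 18.7 and 19.2 scaled FPKM fresh and at 19.6 to 24.4 in organoids (limma adjusted p = 0.175). Among those that rose were the ERK kinase Map2k2 (11.8 in the epithelia against 34.9 ± 3.50 in organoids, SD, n = 6; log2 difference 1.49, limma adjusted p = 0.000139), Rps6ka1 (1.46, limma adjusted p = 0.00659) and Map2k1 (0.89, limma adjusted p = 0.0163). Mkl2, a cofactor of SRF, fell by 0.62 (limma adjusted p = 0.00283), and Rps6ka3 fell by 0.32 (limma adjusted p = 0.0403).

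MAP kinase feedback genes, which are transcribed in response to lasting ERK activity, had a median of 0.35. Of 17 genes, 5 rose, 3 fell and 9 did not pass. The count that rose was near the background of 32.3% of all genes, with 27.0% falling, so it too is no result about the list. Without pancreatic duct epithelium 3 rose and 1 fell. Dusp4, a nuclear MAP kinase phosphatase, went from 2.91 to 30.0 ± 10.4 scaled FPKM (SD, n = 6; log2 difference 2.98, limma adjusted p = 0.000414), in contrast to its relative Dusp1. Etv4, an ETS factor downstream of FGF signals, went from 0.840 to 11.7 ± 2.42 (2.78, limma adjusted p = 4.26e-05), and Phlda1 rose by 1.26 (limma adjusted p = 0.0103). Dusp8, Spry1 and Spry4 fell by 2.12, 1.19 and 1.06 (limma adjusted p = 0.00837, 0.00286 and 0.00698). Dusp6, a phosphatase of ERK, had 42.2 and 47.9 in the epithelia and 27.9 to 51.6 in organoids and did not pass.

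Heat shock genes, which often appear beside immediate early genes in dissociated tissue, went both ways. Of 14 genes, 6 fell, 3 rose and 5 did not pass, with a median of -0.46, where 27.0% of all genes fell and 32.3% rose. Without bile duct epithelium 3 fell. Hspb1 fell by 3.50 (limma adjusted p = 0.00195), Dnajb4 by 2.59 (limma adjusted p = 3.82e-06) and Hspa1a by 1.98 (limma adjusted p = 0.0109). Near-identical copies such as Hspa1a and Hspa1b can share reads, so their single values are uncertain. Hspd1, Hsp90ab1 and Hspe1 rose by 1.58, 1.12 and 1.04 (limma adjusted p = 0.00144, 0.00129 and 0.00371). Of 17 NF-kB early response genes 4 fell, 0 rose and 13 did not pass, with a median of -0.36. The count that fell was near the background of 27.0% of all genes, and 32.3% of all genes rose. Without either epithelium 1 NF-kB gene fell. Without bile duct organoid 1 a single NF-kB gene rose. Those that fell included Il1b, a cytokine of myeloid cells (-3.08, limma adjusted p = 6.02e-05), and Nfkbiz (-0.90, limma adjusted p = 0.0440), and leukocyte markers were lower in the same direction.

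**Figure D4:**
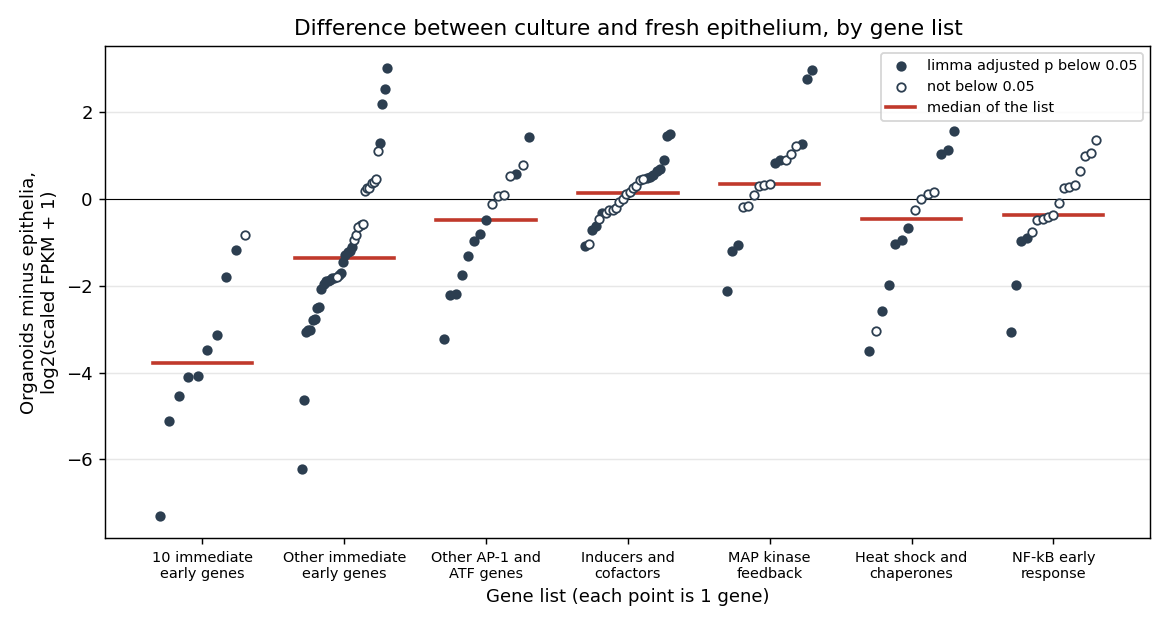
Difference between organoids and epithelia on the log2(scaled FPKM + 1) scale, where each point is 1 gene tested, filled where limma's adjusted p is below 0.05, and the red line is the median of the list. The 10 immediate early genes have a median of -3.78 and all lie below 0, whereas the inducers and the MAP kinase feedback genes lie around 0, with medians of 0.14 and 0.35.

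The genes whose pattern was most like the mean of the 10 were found by Pearson correlation of log2(scaled FPKM + 1). Over all 8 libraries 1181 of 7312 protein-coding genes (16.2%) had a coefficient above 0.9. The closest 5 were Pros1, P3h3, Stx2, Serinc3 and Trafd1, at 0.995 to 0.996. Serinc3, for example, was at 288 and 379 scaled FPKM fresh and at 46.2 to 71.2 in organoids. Over the 6 organoids alone 318 of 6050 genes (5.26%) were above 0.9. The closest 5 were Serinc3 (0.995), Zfp281 (0.995), Prkar2b (0.994), Bcl9 (0.993) and Stat3 (0.989). Stat3, a factor of cytokine signalling, had 19.5, 12.5 and 11.2 scaled FPKM in bile duct organoids 1 to 3 and 15.01, 23.5 and 19.5 in pancreatic duct organoids 1 to 3. These coefficients describe 8 or 6 libraries that share their depth and culture, and carry no test.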

How the data were processed

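Libraries were NEBNext Ultra preparations of mRNA captured on poly-T beads (labels' protocols). The submitters' processing notes name Bowtie2 2.2.3, HISAT2 2.1.0, TopHat2 and HTSeq 0.6.0 without roles. The genome build, filters and strand setting are not given in the sources used here. The values are FPKM as deposited by the authors, 1 column per library, a unit read from the values, since the file does not name it. Multiplied by GENCODE M21 exon length, 28310 of 31228 genes (90.7%) fell within 0.05 of whole reads in all 8 libraries. Coordinates are those of the table, in GRCm38 as far as they match M21, which they do for 8 of the 10 genes. Read numbers are quoted only for genes that came out whole.

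FPKM were scaled over 8 libraries (6 for the organoid comparison) by an unweighted trimmed mean of log ratios, trimming 30% of ratios and 5% of levels at each end. Genes with at least 1 FPKM in 2 libraries (3 organoids) were tested on log2(FPKM + 1) with limma 3.58.1 in R 4.3.3, two-sided, at an adjusted p of 0.05. Between epithelium and organoid of 1 organ genes had at least 1 FPKM in 1 library. On simulated data the culture comparison, with 14919 genes and 200 changed, recovered 84% of 4-fold and 55% of 2-fold changes, with 7 false calls among 146. The organoid comparison, with 12106 genes and 200 changed, recovered 76% and 48%, with 5 false calls among 129. In the data 59.2% of genes passed the culture comparison, a far larger share than was changed in its simulation. The simulation also gave all libraries of a gene the same spread. Its recovery and false calls therefore do not carry over to the real culture comparison. Named were the 10 members, up to 3 genes per list and direction with the widest change among those that passed and averaged at least 5 FPKM on the higher side, and the 5 genes most like the members with at least 10 FPKM. One gene that this rule names is not reported here. The members, lists and tests were chosen with earlier results of these data known. Alternatives covered scaling, pseudocount, filter, block, organ term, test and each library left out. Figures used Python 3.11.15 and matplotlib 3.10.9.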

Additional observations from a re-analysis of the deposited data

How the results depend on the processing

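Of the 10 genes, 8 (all but Junb and Jund) stayed lower in culture and past the threshold in each alternative limma fit run, and on within-library ranks. Relative to the scaling used, deposited FPKM shift organoids against epithelia by 0.15 on the log2 scale, upper quartile scaling by 0.13 and median of ratios scaling by -0.18, and no member changed direction. The number of genes lower in culture was 6868 with no filter and 1359 with at least 10 FPKM, where fewer genes are tested. Leaving out each library gave 1250 to 4208 genes lower and 3052 to 4977 higher, with both low ends reached without pancreatic duct epithelium. Without bile duct epithelium 1353 were lower. A lone epithelium was assumed to vary like the organoids. At 10 FPKM, genes lower by 2-fold numbered 1368 for bile duct and 1330 for pancreatic duct organoids. Genes higher in pancreatic duct epithelium numbered 256 and in bile duct epithelium 577 at that filter, and with a pseudocount of 0.1 there were 1023 higher in pancreatic duct epithelium.

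Between the organoid groups the genes called ran from 0 to 11 on leaving out a culture, the 11 without pancreatic duct organoid 3, and the members at an unadjusted p under 0.05 from 0 to 3, with 3 without bile duct organoid 1. The difference for Egr1 ran from -0.38 to 0.21 and turned sign without bile duct organoid 3 (0.21), pancreatic duct organoid 2 (0.12) or 3 (0.061). That for Atf3 ran from -1.11 to 0.087 and turned without pancreatic duct organoid 2, and the cause was not tested. Same-numbered organoids correlated at -0.10, -0.44 and 0.48, on deviations from the mean of the 3 cultures of each organ. With 3 cultures per organ this cannot show whether the numbers pair them, which is not known. With the replicate number as a block 0 members and 0 genes passed. Few reads limit the precision of Jund, with under 100 per library, and of Fosb in most cultures. Library depth was not the limit, since Fos had 24438 reads in bile duct epithelium where Jund had 99. Why Jund had so few was not tested. Counting error is all that read numbers show.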

Other observations

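Hsp90aa1, a stress-inducible chaperone noticed after its values were seen, had 189 and 112 scaled FPKM in the epithelia (bile duct first). Pancreatic duct organoids 1 and 2 had 275 and 239, whereas pancreatic duct organoid 3 had 2.74 and bile duct organoids 1 to 3 had 4.67, 3.35 and 4.04. Its partner gene Hsp90ab1 had between 998 and 1118 in the 6 cultures. The split of Hsp90aa1 followed neither the organ nor the order of the immediate early genes.

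Rhob, a small GTPase that is itself an immediate early gene, had 176 and 232 scaled FPKM in the epithelia. It had 113 in pancreatic duct organoid 2 and 79.9 in bile duct organoid 1, and 9.39 to 31.3 in the other cultures. Cyr61, a matrix protein gene also induced early, had 214 and 176 in these cultures and 45.8 to 72.4 in the others, and did not pass in the comparison of culture with fresh epithelium (log2 difference -1.80, limma adjusted p = 0.0599). Both were singled out after their values were seen.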
